A study of Homo sapiens with 4 samples.

Results

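The neutrophil-attracting CXC chemokines described here are CXCL8, CXCL3, CXCL2, CXCL1, CXCL5 and CXCL6, 6 of the 18132 genes measured by a single-symbol probe set and read by 14 of the 49293 probe sets on Affymetrix PrimeView arrays. A probe set, a group of short probes against one transcript, was counted when the platform's annotation gave it exactly 1 symbol and that symbol was one of the 6 genes. CXCL8 and CXCL5 had 3 such probe sets each and the other genes had 2 each. The arrays hold RNA labelled as from Hs578T, a human triple-negative breast cancer cell line with mesenchymal features. Of the 4 arrays, 2 come from cells labelled ELK3 knockdown (replicates 1 and 5) and 2 from cells labelled ELK3 sh control (replicates 1 and 2). Per the labels, stable knockdown cells were made with lentiviral shRNA against ELK3, an ETS family transcription factor that works with serum response factor. All cells were grown in DMEM with fetal bovine serum, antibiotics and insulin. The labels do not say whether a number marks a construct, a clone or a culture, so the p-values measure the spread between these arrays, which may be technical.

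These chemokines share a Glu-Leu-Arg motif ahead of the paired cysteines that give the CXC family its name. They bind CXCR2 on neutrophils, and CXCL8 and CXCL6 also bind CXCR1, and so draw neutrophils out of blood into tissue. In tumour and stromal cells their transcription is switched on by interleukin-1, tumour necrosis factor and Toll-like receptor signals through NF-kB, with AP-1 and C/EBP factors as partners. AU-rich elements in their mRNAs bind decay factors that shorten the life of the message.

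The sequence just before each gene's annotated start is shown because all 6 genes carry the same NF-kB core there. Each line gives 150 bases, 5′ to 3′ on the gene's strand, ending at the base before the start, from RefSeq on GRCh38.p14. Capitals mark the core GGAATTTCC. All 6 genes matched the promoter table.
CXCL8: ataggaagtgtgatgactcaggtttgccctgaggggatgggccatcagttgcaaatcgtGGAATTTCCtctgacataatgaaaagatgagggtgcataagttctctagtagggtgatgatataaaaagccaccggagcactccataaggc
CXCL3: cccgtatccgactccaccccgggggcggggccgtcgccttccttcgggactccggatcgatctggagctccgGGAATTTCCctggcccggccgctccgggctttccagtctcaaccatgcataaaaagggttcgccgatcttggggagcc
CXCL2: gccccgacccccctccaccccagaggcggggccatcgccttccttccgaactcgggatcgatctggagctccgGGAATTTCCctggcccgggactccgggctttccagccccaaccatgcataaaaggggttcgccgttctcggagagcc
CXCL1: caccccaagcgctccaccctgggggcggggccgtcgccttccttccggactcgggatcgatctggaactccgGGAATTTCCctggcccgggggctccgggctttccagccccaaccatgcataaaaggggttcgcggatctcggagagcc
CXCL5: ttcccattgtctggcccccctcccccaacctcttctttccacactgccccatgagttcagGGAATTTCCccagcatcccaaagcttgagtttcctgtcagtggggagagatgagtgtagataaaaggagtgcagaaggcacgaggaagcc
CXCL6: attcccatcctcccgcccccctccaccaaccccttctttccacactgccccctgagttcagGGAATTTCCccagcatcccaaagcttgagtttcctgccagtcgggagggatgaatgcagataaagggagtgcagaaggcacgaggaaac

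The stretch of CXCL8 lies at chr4:73740419-73740568 (plus strand). That of CXCL3 lies at chr4:74038690-74038839 (minus strand), and that of CXCL2 at chr4:74099196-74099345 (minus strand). CXCL1 is at chr4:73869243-73869392 (plus strand), CXCL5 at chr4:73998678-73998827 (minus strand) and CXCL6 at chr4:73836528-73836677 (plus strand). On both strands of the windows from 250 bases before to 50 bases after the start, the core was present in 6 of 6 members and in 0.461% of all 35116 RefSeq promoter windows. The letters searched were those of the core as found in this CXC cluster. The 6 of 6 thus follows from that choice and is no measure of enrichment. It began 91 bases before the start in CXCL8, 78 in CXCL3, 77 in CXCL2, 78 in CXCL1, 90 in CXCL5 and 89 in CXCL6, on the gene's own strand each time. The AP-1 motif TGANTCA was found in CXCL8 alone of the 6, at 137 bases before the start, and in 7.71% of all windows. The C/EBP motif in the exact letters TTGCNNAA was found in CXCL2 alone, at 188 bases before the start, and in 10.5% of all windows. The CXCL8 stretch holds TTGCAAAT, which differs from this pattern in its last letter only. A gene without a match may therefore still hold a C/EBP site. The short ETS core in the letters CGGAA, which does not overlap the NF-kB matches, was found in CXCL2 and CXCL1 and in 34.9% of all windows. Runs with AGGAA, such as AGGAAGTG in the CXCL8 stretch, were not searched for. A gene without a match may therefore still hold an ETS core. The longer ETS motif CCGGAAGT, which contains the short core (4.14% of all windows), and the CArG box of serum response factor (1.29%) had no match in the 6 windows. A match is a run of letters, and binding was not measured.

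**Figure D1:**
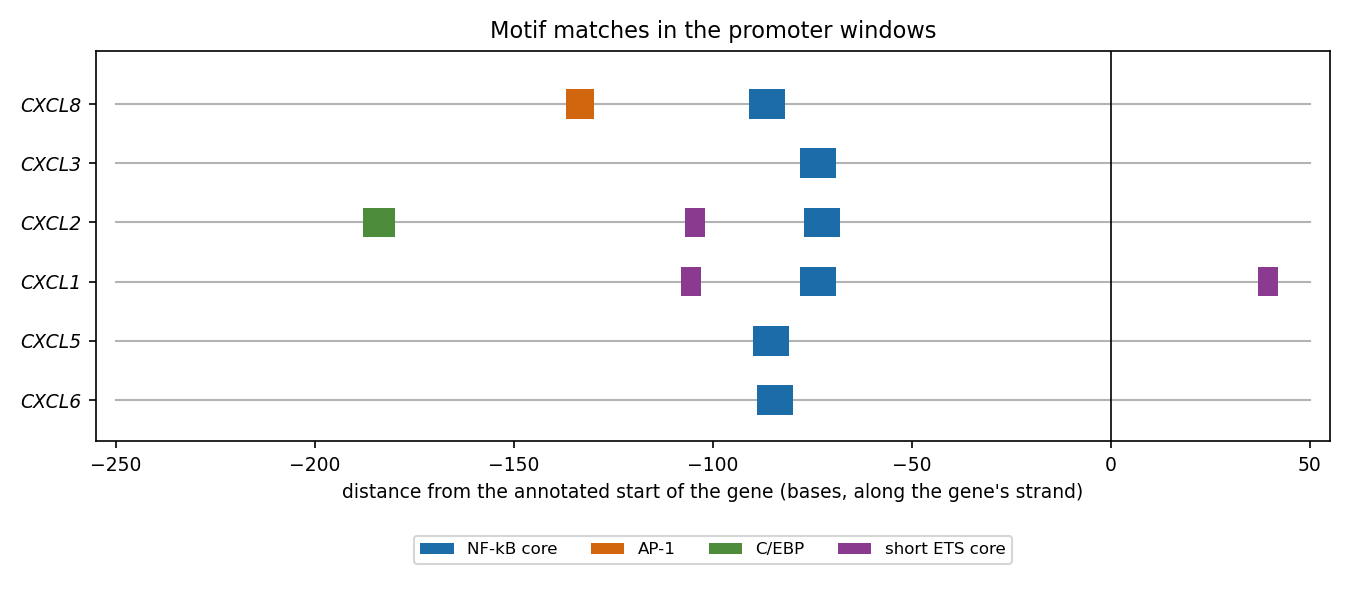
Motif matches (coloured blocks, drawn to scale) in the promoter windows of the 6 genes, by distance from the annotated start in bases. The NF-kB core lies 77 to 91 bases before the start in each gene, and the AP-1 match is seen in CXCL8 only.

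By a global alignment of the 250 bases before the start, CXCL5 and CXCL6 were 85.3% identical and CXCL3 and CXCL1 81.4%. CXCL3 and CXCL2 were 73.4% identical, and CXCL2 and CXCL1 70.1%. CXCL8 stood apart at 44.3% to 48.1% against the other 5. The upstream sequences thus fall into CXCL1, CXCL2 and CXCL3 as one group and CXCL5 and CXCL6 as another.

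The arrays of the same group were close and the groups far apart. Between the knockdown arrays 0.229% of probe sets lay over 1 log2 unit apart, and between the control arrays 0.0183%, against 16.7% to 17.1% between arrays of different groups. ELK3, the targeted gene, was at 8.09 and 7.92 in the knockdown arrays and at 10.05 and 10.07 in the control arrays by its brighter probe set (log2 change -2.06, limma adjusted p = 2.42e-06). Its other probe set changed by -2.04. Markers of mesenchymal breast lines, which define Hs578T, were lower in 12 of 12 genes, with a mean signal of 8.31 and 8.18 in the knockdown arrays against 12.95 and 12.89 in the control arrays. Among them the 4 largest falls were those of AXL, TGFBI, CDH11 and COL1A2. These lay between 3.57 and 5.84 in the knockdown arrays and between 10.83 and 14.19 in the control arrays. On averaging probe sets the log2 changes of AXL, CDH11 and COL1A2 were -5.16, -3.25 and -7.54. The mesenchymal filament gene VIM was still at 13.05 and 13.20 against 14.30 and 14.27. MSN, CAV1, SPARC, CD44 and ZEB1 averaged 11.52, 11.13, 11.07, 9.84 and 9.29 in the knockdown arrays, and FN1 and THY1 7.89 and 5.01. Of 10 luminal epithelial markers, 4 rose, among them KRT8 and KRT19, and KRT7 fell, while CDH1 and EPCAM did not pass. Their mean was 7.78 and 7.77 in the knockdown arrays and 6.42 and 6.51 in the control arrays. Of 10 markers of embryonic kidney lines, 5 rose (LIN28B, UCHL1, NEFL, LHX1 and BEX2) and NEFM, INA, PAX2, BEX1 and SOX3 did not pass. The mean of the 10 was 7.92 and 7.94 in the knockdown arrays against 5.48 and 5.36 in the control arrays. Beside these marker counts, 21.3% of all genes were called lower and 29.5% higher. Leukocyte markers averaged 4.80 and 4.86 in the knockdown arrays and 4.98 and 5.04 in the control arrays, with PTPRC at 3.60 to 3.78 over all 4. Several of the markers that define the labelled line were therefore near the dim end in the knockdown arrays. All chemokine results compare these same arrays. The groups may therefore differ in the identity or state of their cells, and such a difference cannot be told apart from ELK3 knockdown in any knockdown minus control value given here.

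Of the 14 chemokine probe sets, 7 were lower in the knockdown arrays, 1 was higher and 6 did not pass an adjusted p under 0.05. Over all probe sets, 22.1% were called lower and 27.0% higher. The groups did not overlap for 13 of the 14, against 74.5% of all probe sets. All 7 lower probe sets belong to CXCL8, CXCL3 and CXCL2, and every single-symbol probe set of these 3 genes was lower. With 1 probe set per gene, the brightest, 3 of the 6 genes were lower and the other 3 did not pass, where 21.3% of 18132 genes were called lower and 29.5% higher. Signals are RMA log2 values, and in bulk RNA fewer cells of a type and less RNA per cell cannot be told apart.

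**Figure D2:**
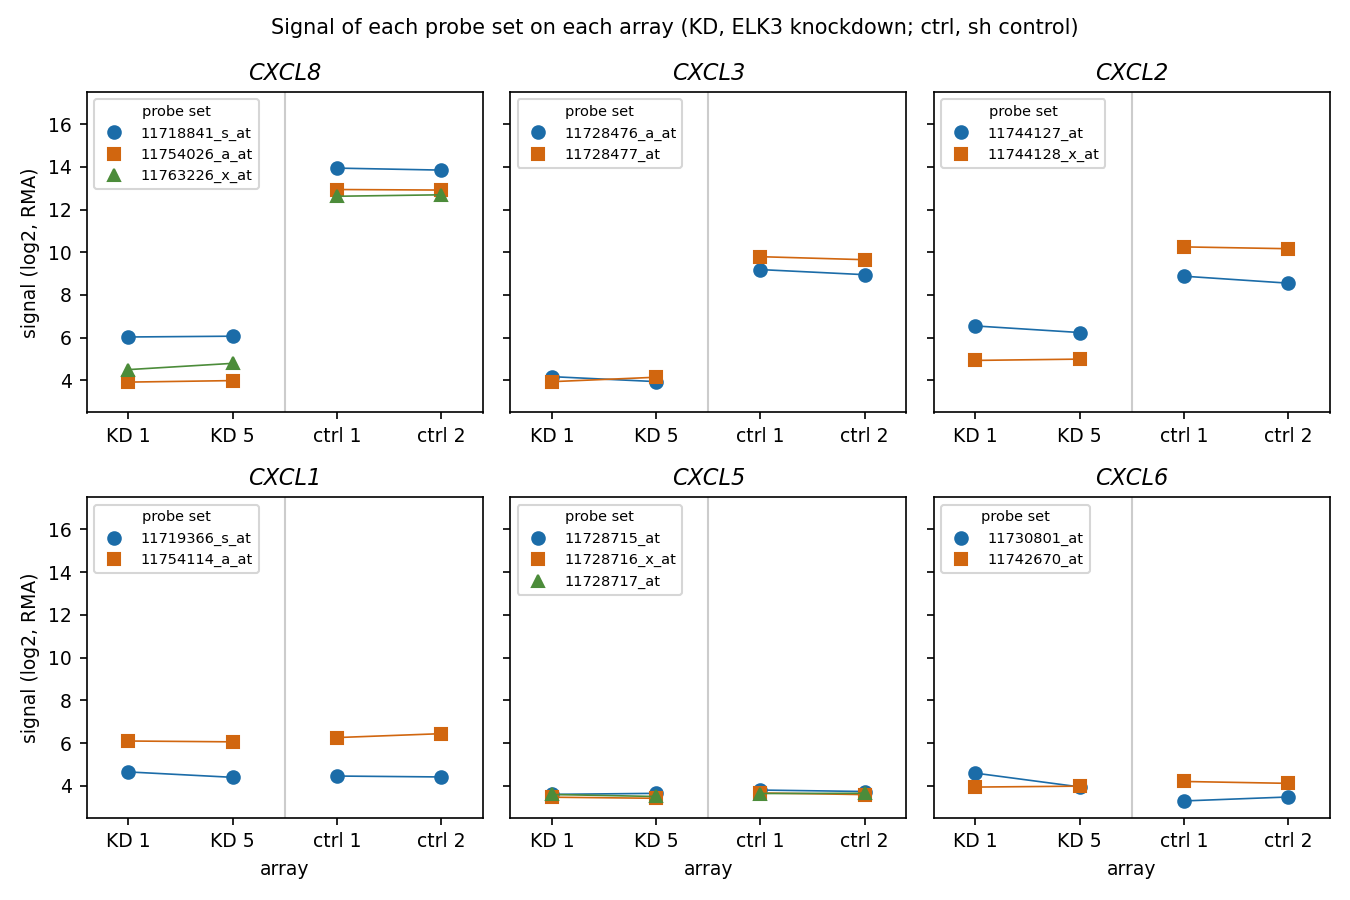
Signal (log2, RMA) of each chemokine probe set on each array, with 1 panel per gene, knockdown arrays (KD) left of control arrays (ctrl), and lines joining arrays of a group. CXCL8, CXCL3 and CXCL2 separate widely, from 3.92 to 6.55 in knockdown arrays and from 8.55 to 13.94 in control arrays, while CXCL1, CXCL5 and CXCL6 stay under 6.5 on all 4.

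CXCL8, interleukin-8, the main human neutrophil attractant and a ligand of both CXCR1 and CXCR2, was among the brightest signals of the control arrays and fell by the most of the 6. Probe set 11718841_s_at read 6.03 and 6.07 in the knockdown arrays, against 13.94 and 13.84 in the control arrays. Probe set 11754026_a_at read 3.92 and 3.99 in the knockdown arrays, against 12.94 and 12.91 in the control arrays. Probe set 11763226_x_at read 4.51 and 4.80 in the knockdown arrays, against 12.62 and 12.69 in the control arrays. Both knockdown arrays were low and both control arrays high with each probe set, and the gap between groups was many times the gap within them.

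The first CXCL8 probe set averaged 6.05 ± 0.026 in knockdown arrays and 13.89 ± 0.066 in control arrays (SD, n = 2 each). The log2 changes of the 3 probe sets were -7.84 (95% interval -8.01 to -7.67), -8.97 (-9.17 to -8.76) and -8.00 (-8.27 to -7.73). On the linear scale the readings were 229-fold, 500-fold and 256-fold lower. The limma adjusted p lay between 1.97e-08 and 4.94e-08. Larger falls were measured at 19, 4 and 18 of the 49293 probe sets, counts that include the other CXCL8 probe sets. In the control arrays 98.9% to 99.9% of all values lay below the CXCL8 signals. In the knockdown arrays 40.2% and 40.3% lay below the first probe set, and 7.29% to 21.6% below the others, so the 3 probe sets part most at the dim end. The lowest value on an array was between 2.97 and 3.07, so the dimmest CXCL8 readings lie close to it. With no detection call, folds against such readings, those of CXCL3 included, are at best lower bounds.

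CXCL3 and CXCL2 encode GRO-gamma and GRO-beta, ligands of CXCR2. CXCL3 read 3.94 and 4.15 in the knockdown arrays, against 9.79 and 9.65 in the control arrays, by probe set 11728477_at. By probe set 11728476_a_at it read 4.18 and 3.95 in the knockdown arrays, against 9.19 and 8.95 in the control arrays. Both probe sets put CXCL3 near the dim end in the knockdown arrays and well above it in the control arrays. Their log2 changes were -5.68 (SE 0.12) and -5.01 (SE 0.14), or readings 51.1-fold and 32.2-fold lower, again at best lower bounds, with limma adjusted p = 1.77e-07 and 4.17e-07.

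CXCL2 fell by both of its single-symbol probe sets, but by unequal amounts. A probe set annotated to both CXCL1 and CXCL2, described with CXCL1 below, changed by only -0.29 and was not called. Probe set 11744128_x_at, whose suffix marks probes that may bind other transcripts, read 4.94 and 4.998 in the knockdown arrays, against 10.25 and 10.17 in the control arrays. Probe set 11744127_at read 6.55 and 6.24 in the knockdown arrays, against 8.88 and 8.55 in the control arrays. The groups were apart in both, and the log2 changes were -5.24 (95% interval -5.48 to -5.004) and -2.32 (-2.68 to -1.95). The readings were therefore 37.8-fold lower by the first and 4.99-fold lower by the second (limma adjusted p = 1.17e-07 and 1.85e-05). The intervals do not meet, and the mean of the CXCL2 probe sets gave -3.78. Since 11744128_x_at may bind other transcripts, its fold may overstate or understate the fall of CXCL2. Probe set 11744127_at was not near the array floor in the knockdown arrays.

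CXCL1, or GRO-alpha, is the closest relative of CXCL2 and CXCL3 and acts through the same receptor. It was under the array median on every array and no fall was called. Probe set 11754114_a_at read 6.10 and 6.06 in the knockdown arrays, against 6.26 and 6.44 in the control arrays. Probe set 11719366_s_at read 4.65 and 4.40 in the knockdown arrays, against 4.46 and 4.41 in the control arrays. The groups were apart in the first by a narrow margin and overlapped in the second. The log2 changes were -0.27 (95% interval -0.56 to 0.01, limma adjusted p = 0.104) and 0.09 (-0.18 to 0.35, adjusted p = 0.565). With array minima of 2.97 to 3.07, a fall as deep as that of CXCL2 by 11744128_x_at could not have been measured from these control signals. Counted from those minima, probe set 11754114_a_at had room for a fall like that of CXCL2 by 11744127_at (-2.32), and none was called. The background level of each probe set is not known, however. Whether 11754114_a_at could have shown such a fall is therefore not known either. A probe set annotated to both CXCL1 and CXCL2, left out of the 14, read 5.55 and 5.47 in the knockdown arrays and 5.81 and 5.79 in the control arrays (log2 change -0.29, adjusted p = 0.069).

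CXCL5, or ENA-78, a CXCR2 ligand made by epithelial cells, was at the dim end throughout. Its 3 probe sets lay between 3.41 and 3.65 in the knockdown arrays and between 3.59 and 3.80 in the control arrays. At most 4.84% of the values on an array lay below them. The log2 changes were -0.14, -0.19 and -0.10, and none passed (limma adjusted p from 0.069 to 0.314). A further probe set, annotated to both CXCL5 and GLYR1, read 9.64 and 9.58 in the knockdown arrays and 8.74 and 8.66 in the control arrays. It was left out, since its signal cannot be assigned to one of its genes.

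CXCL6, or GCP-2, which binds both CXCR1 and CXCR2, gave opposite signs by its probe sets. Probe set 11730801_at read 4.59 and 3.95 in the knockdown arrays, against 3.29 and 3.48 in the control arrays. Probe set 11742670_at read 3.94 and 3.98 in the knockdown arrays, against 4.20 and 4.11 in the control arrays. Both separate the groups, the first with knockdown higher and the second with knockdown lower. The first rose by 0.89 on the log2 scale (SE 0.19, 1.85-fold, limma adjusted p = 0.00724), with an SD of 0.46 between the knockdown arrays. That rise was 0.56 without knockdown replicate 1 and 1.21 without knockdown replicate 5, and passed both times. The second changed by -0.20 (adjusted p = 0.0914). In the control arrays at most 0.891% of values lay below the first, so its rise starts at the floor of the array.

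**Figure D3:**
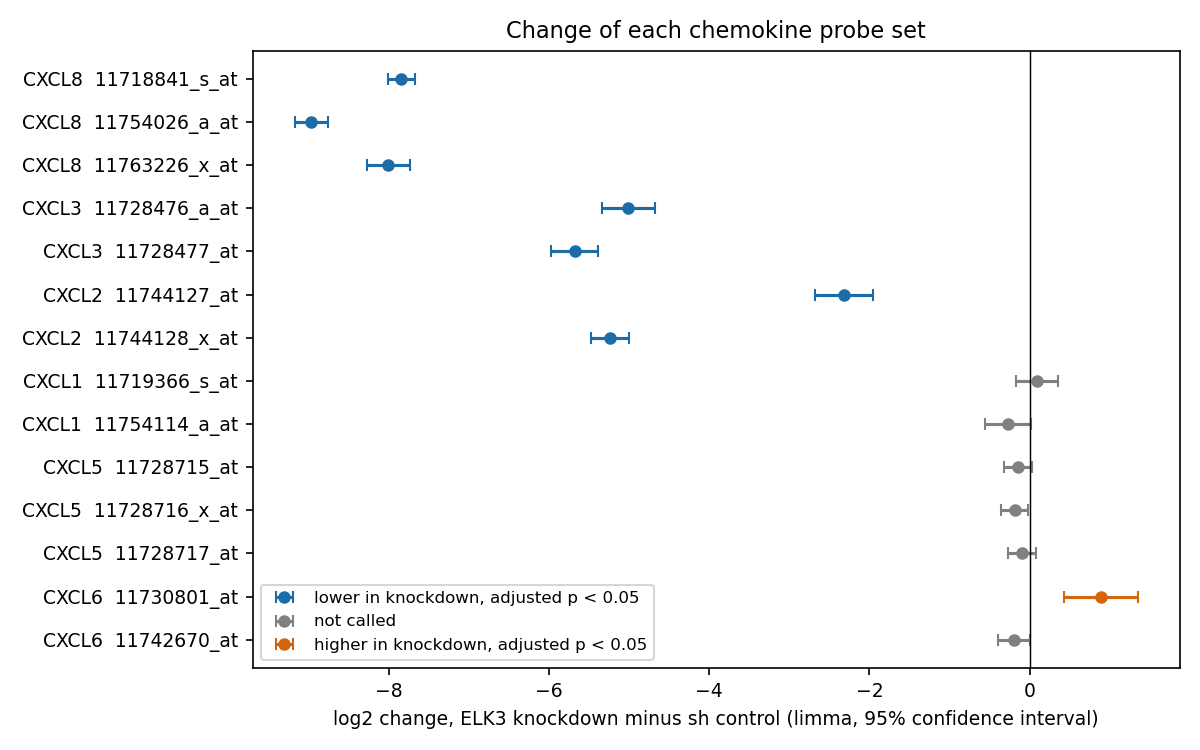
Log2 change (knockdown minus control) of the 14 chemokine probe sets with 95% confidence intervals from limma. The 7 probe sets of CXCL8, CXCL3 and CXCL2 lie between -8.97 and -2.32, and those of CXCL1, CXCL5 and CXCL6 between -0.27 and 0.89.

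The unequal change of the members was also expressed within each array. These differences restate the probe set values given above and are no separate evidence. The CXCL8 signal minus the CXCL1 signal, by the brightest probe sets, was -0.06 and 0.01 in the knockdown arrays, against 7.68 and 7.41 in the control arrays. The difference between groups was -7.57, with no overlap. For CXCL3 minus CXCL1 the values were -2.15 and -1.91 in the knockdown arrays, against 3.54 and 3.21 in the control arrays, and for CXCL2 minus CXCL1 -1.16 and -1.06 against 3.99 and 3.73. For CXCL5 and CXCL6 minus CXCL1 the differences between groups were 0.13 and 0.08. By these probe sets CXCL5 and CXCL6 were near the dim end on every array and CXCL1 was under the array median, so these distances had limited room to move. The exact two-sided permutation test gave p = 0.333 for CXCL8, CXCL3 and CXCL2, which is the smallest that 2 arrays against 2 allow.

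Of 78 other measured genes with the NF-kB core in a promoter window, 23 were lower (29.5%) and 25 higher (32.1%), with a median log2 change of 0.01. Over all genes 21.3% were lower and 29.5% higher, with a median of -0.01. This set was chosen after the chemokine values were seen and is given as a description only.

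All 6 genes lie in one cluster on chromosome 4, in the order CXCL8, CXCL6, CXCL1, CXCL5, CXCL3 and CXCL2, with PF4V1, PF4 and PPBP between them. The 3 that fell are not all neighbours: CXCL8 stands at one end of the cluster and CXCL3 and CXCL2, side by side, at the other. Between those ends PF4V1, a variant of platelet factor 4, changed by -0.42 (limma adjusted p = 0.0115) and PF4, platelet factor 4, by -0.75 (adjusted p = 7.44e-04). PPBP, the precursor of the neutrophil attractant NAP-2, changed by -0.09 (adjusted p = 0.344). The call of PF4V1 was lost without control replicate 1 (-0.39, adjusted p = 0.091), without control replicate 2 (-0.45, adjusted p = 0.0537) and when probe sets marked as cross-hybridising were dropped (-0.23). Thus the inner genes of the cluster moved by under 1 log2 unit. Of these, PPBP, CXCL5 and CXCL6 averaged 3.77, 3.77 and 4.16 in the control arrays, near the floor, so a fall could hardly have been measured. PF4, CXCL1 and PF4V1 averaged 5.85, 6.35 and 7.51 there.

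Outside the cluster, on the side of CXCL2, MTHFD2L, a mitochondrial folate enzyme, was 4.57-fold lower, at 5.98 and 5.59 in the knockdown arrays and 8.01 and 7.95 in the control arrays. Averaging the probe sets of MTHFD2L gave a log2 change of -1.42 in place of -2.19. The EGF family genes beyond it were dim: BTC changed by -0.48 (adjusted p = 0.00906, or -0.22 on averaging its probe sets), and EPGN and EREG did not pass. On the side of CXCL8, RASSF6, AFM and ALB did not pass, AFP, the fetal serum protein, changed by -3.24, and ANKRD17 rose by 0.58. Of the 13 neighbours named by this rule, 12 were measured by a probe set with 1 symbol.

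**Figure D4:**
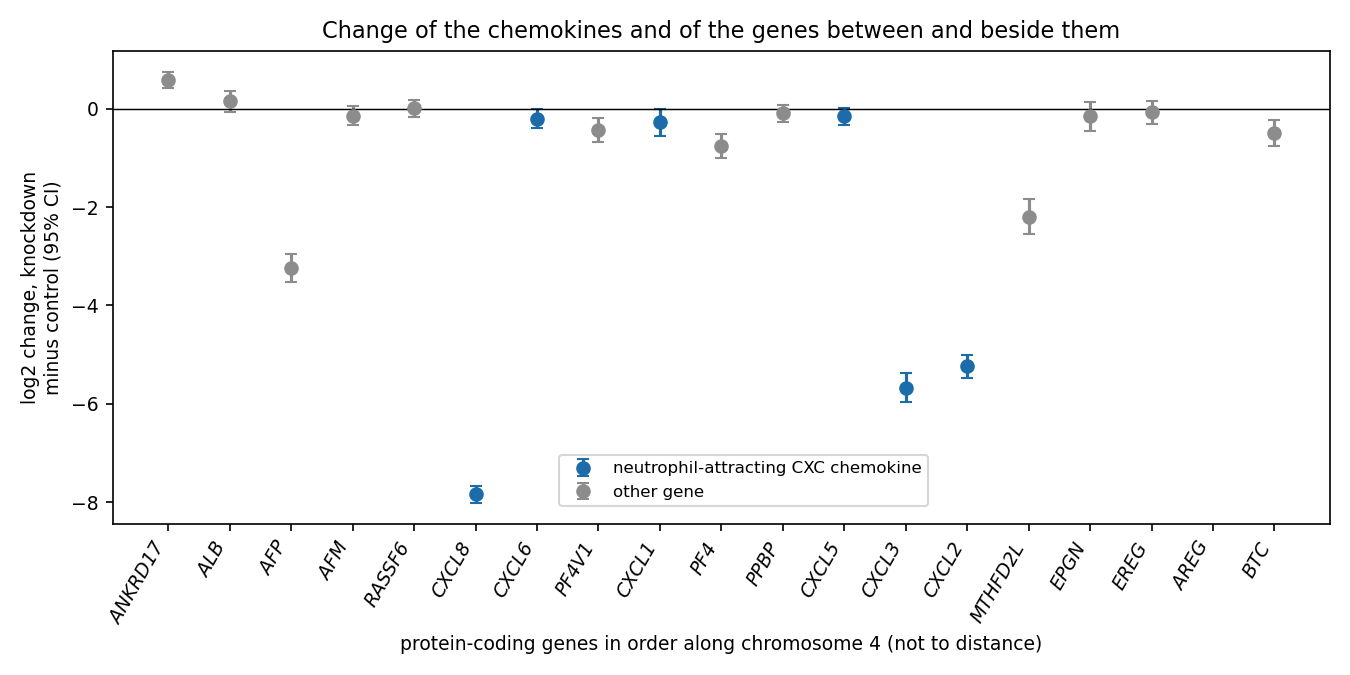
Log2 change (knockdown minus control, 95% confidence interval, brightest probe set) of the 6 chemokines and of the genes between and beside them, in order along chromosome 4 and not to distance. CXCL8 at -7.84 and CXCL3 and CXCL2 at -5.68 and -5.24 stand at the ends of the cluster. Between them the changes were smaller and the control signals lower, and AREG has no value.

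The genes whose 4 values followed CXCL8 most closely were CTHRC1, PAGE5 and SRGN, at Euclidean distances of 0.198, 0.467 and 0.520 between mean-centred log2 values over the 4 arrays. With 4 arrays in 2 tight pairs, this measure follows the size of the fall. CTHRC1 encodes a secreted collagen-associated protein, PAGE5 a cancer-testis antigen and SRGN the proteoglycan serglycin. Their log2 changes were -7.71, -7.37 and -7.63. On averaging all probe sets of a gene, CTHRC1 was at -4.84 and PAGE5 at -4.45.

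Among receptors, CXCR1 read 6.01 and 5.73 in the knockdown arrays and 6.30 and 6.35 in the control arrays (log2 change -0.45, limma adjusted p = 0.0229). CXCR2 read 4.40 and 4.49 in the knockdown arrays and 4.68 and 4.82 in the control arrays (-0.31, adjusted p = 0.0334), and the decoy receptor ACKR1 did not pass. CXCR1 no longer passed when knockdown replicate 5 (-0.31) or control replicate 2 (-0.43) was dropped. CXCR2 no longer passed when knockdown replicate 1 (-0.26) or control replicate 2 (-0.24) was dropped, or on averaging its probe sets (-0.14). Beside the counts that follow, 21.3% of all genes were called lower and 29.5% higher. Of the 11 other CXC chemokines, 5 fell and CXCL16 rose by 0.68, with a list median of -0.26 against -0.01 over all genes. Without control replicate 1, 3 of them were lower. Only CXCL12, the ligand of CXCR4, fell by an amount near that of the neutrophil attractants, at 7.71 and 7.36 in the knockdown arrays and 11.21 and 10.97 in the control arrays (-3.56, or -5.60 on averaging its probe sets). PF4 and CXCL11 changed by -0.75 and -0.49, and CXCL11 lost its call when cross-hybridising probe sets were dropped (-0.15). The changes of the members thus ranged wider than those of the other CXC genes. Several of the others were dim in the control arrays too, such as PPBP, CXCL10 and CXCL11 at means of 3.77, 4.09 and 4.16. They could not have fallen as far, while PF4V1 and CXCL16 were brighter, at 7.51 and 8.03.

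In a mixed list of growth factors, cytokines and other mediators of myeloid cells, 7 of 13 measured genes fell and the other 6 did not pass (list median -0.46). By comparison, 21.3% of all genes were called lower and 29.5% higher. The 7 include CSF1 (-0.94) and IL34 (-0.46), which are macrophage growth factors, and ANXA1 (-0.64), which restrains neutrophil recruitment. IL6, which shares NF-kB control with CXCL8, changed by -5.97 (-3.97 on averaging its probe sets). LIF, a cytokine of the same family, changed by -3.78 (-2.20 without cross-hybridising probe sets), the complement gene C3 by -1.16 and IL17B by -1.03. CSF3, the granulocyte growth factor G-CSF, was at 7.11 and 7.17 in the knockdown arrays and 7.27 and 7.40 in the control arrays and did not pass. CXCL8 and IL6 were thus low together in both knockdown arrays, and CSF3 was not called.

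The genes that carry signals to the chemokine promoters were read next. Of 14 inducers and their receptors, 8 fell and the other 6 did not pass (list median -0.39). For all genes the called shares were 21.3% lower and 29.5% higher. TLR4, the receptor for lipopolysaccharide, changed by -4.18, IL1R1, the signalling receptor of interleukin-1, by -4.00, its co-receptor IL1RAP by -1.38 and IL17RA by -0.75. On averaging probe sets TLR4 was at -3.23 and IL1R1 at -2.24. Among the ligands, IL1B, at 6.15 and 6.30 in the knockdown arrays and 6.83 and 7.02 in the control arrays, changed by -0.70. TNF changed by -0.50, and IL1A did not pass.

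Of 9 measured genes that carry the signal to NF-kB, 5 rose and 2 fell (list median 0.28). Among all genes 29.5% were called higher and 21.3% lower. The adaptor gene MYD88, used by interleukin-1 and Toll-like receptors, changed by -3.54 (-1.52 on averaging its probe sets). The ubiquitin ligase gene TRAF6 and the kinase complex genes MAP3K7 and TAB2 rose by 1.08, 1.05 and 0.98. Of 14 NF-kB subunits, inhibitors and feedback genes, 10 fell and the other 4 did not pass (list median -0.59). TNFAIP3, NFKBIZ, RELB and BCL3, which are themselves NF-kB targets, changed by -3.23, -2.73, -2.07 and -1.72. BCL3 lost its call when cross-hybridising probe sets were dropped (-0.31), and TNFAIP3 was then at -2.56. RELA, the main activating subunit, was at 0.10 (adjusted p = 0.268).

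AP-1 and C/EBP factors fell in 8 of 10 genes (list median -0.55), where 21.3% of all genes were called lower and 29.5% higher. FOSL1, FOSL2 and FOS, subunits of AP-1, changed by -4.71, -2.86 and -1.94, and CEBPD by -3.11. These sizes rest partly on the probe set, since without cross-hybridising ones FOSL1 was at -3.59, FOS at -3.01 and CEBPD at -0.93. Factors that act on AU-rich mRNAs went both ways, with 4 of 12 lower and 6 higher (list median 0.18). The number higher was 2 without control replicate 1 and 3 without control replicate 2. ZFP36, tristetraprolin, which destabilises chemokine mRNAs, changed by -1.46, and its relative ZFP36L1 by -1.67, whose call was lost without cross-hybridising probe sets (-0.33). TIA1 changed by -0.79 and the deadenylase PARN rose by 0.83.

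Chemokines are trimmed by proteases and held on heparan sulfate. Of 13 proteases known to cut CXC chemokines, 7 fell and the other 6 did not pass (list median -1.04). The shares called over all genes were 21.3% lower and 29.5% higher. MMP3, ANPEP, MMP2 and MMP14 changed by -5.28, -4.49, -4.48 and -4.21, the last at -3.50 on averaging probe sets. MMP9, which truncates CXCL8, was at 0.33 and did not pass by a narrow margin (limma adjusted p = 0.0539). Of 10 carriers of heparan sulfate or related chains, 6 fell and 2 rose (list median -0.85). SRGN and SDC2 changed by -7.63 and -1.72, and the glypican genes GPC3 and GPC4 rose by 2.84 and 1.75 (GPC4 by 0.90 on averaging its probe sets).

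**Figure D5:**
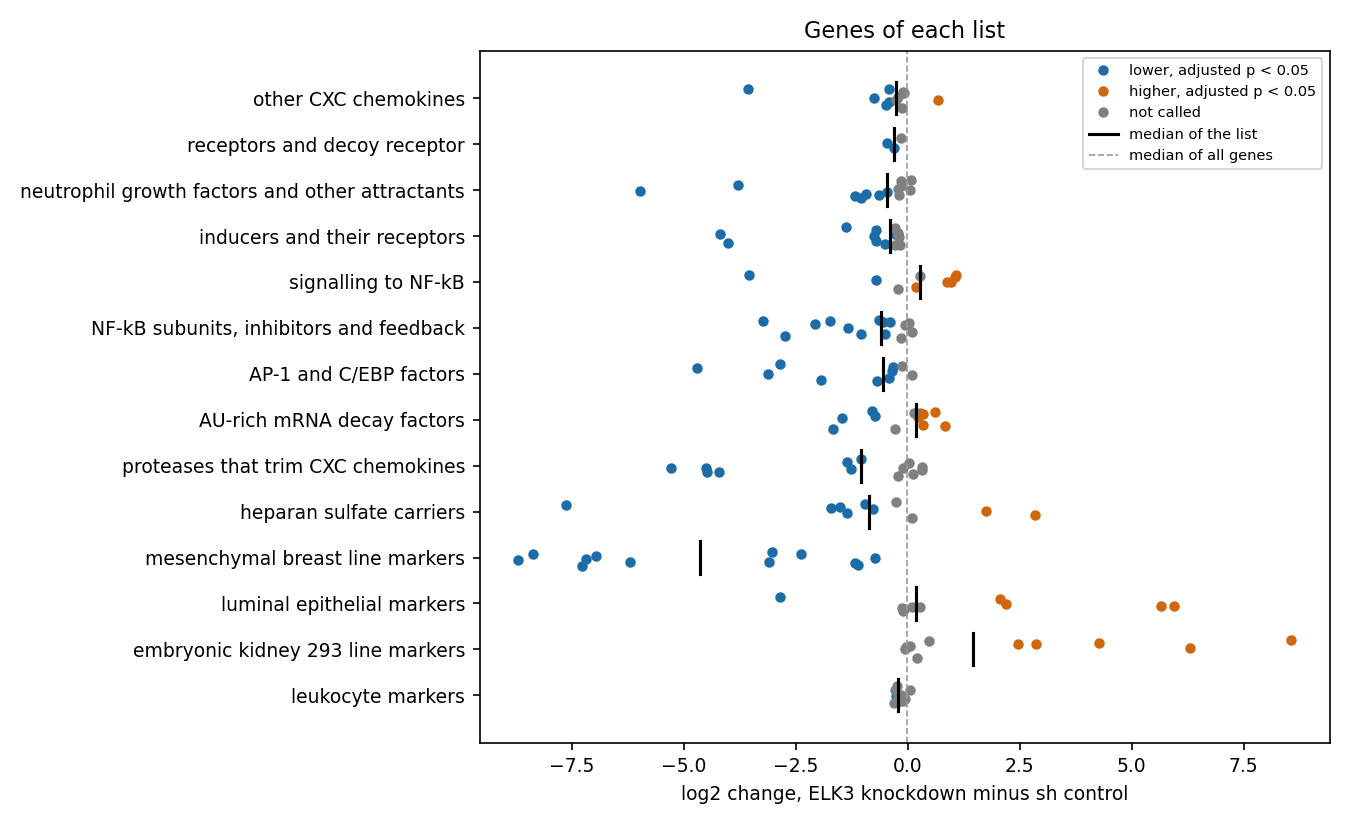
Log2 change (knockdown minus control, brightest probe set) of each gene of the 14 lists, with the median of each list as a black bar and the median of all genes (-0.01) as a dashed line. The list medians run from -4.64 for mesenchymal breast line markers to 1.47 for embryonic kidney line markers.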

How the data were processed

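The authors deposited one table of log2 signal values for 4 PrimeView arrays, one-colour and normalized with RMA, per the submitters' processing notes. Sources used here state neither the RMA version nor its settings. The log2 values were used as deposited. Probe sets were named through the platform annotation: 44988 have 1 symbol, 1832 several and 2473 none listed, and no gene was named from those with several. RMA carries no detection call, and arrays have no read depth, so their number limits precision. Array medians were 6.76 to 6.80.

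Group was the only factor in limma 3.58.1 (R 4.3.3): lmFit, eBayes with an intensity trend, two-sided, Benjamini-Hochberg over all 49293 probe sets, or over 18132 genes with the brightest single-symbol probe set per gene, at an adjusted p under 0.05. The fit was tested on simulated data. Lists are described by counts and medians. Named are all members, ELK3, up to 4 genes past the threshold with the largest changes per list, 5 neighbours on each side, and the 3 genes closest to CXCL8; further list genes were named after their values were seen. The members and lists were chosen with earlier results of these data known. Promoters are RefSeq windows, searched and aligned in Python 3.11.15 with Biopython 1.88. Figures used matplotlib 3.10.9. Alternatives were other moderation, normalization, thresholds, filters, probe set choices and leaving out each array.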

Additional observations from a re-analysis of the deposited data

How the results depend on the processing

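The falls of CXCL8, CXCL3 and CXCL2 kept their direction and call under every alternative run for them, and all 7 of their probe sets stayed lower when any 1 array was left out. The number of lower chemokine probe sets was 4 with cross-hybridising probe sets left out, because fewer were tested. The number of higher ones was 0 under limma without moderation (CXCL6, adjusted p = 0.209; also 0 at an unadjusted p under 0.05) and 0 with dim features left out, where that CXCL6 probe set was not tested. With the mean of all probe sets 1 member gene was higher, CXCL6, which turned to 0.34, against -0.20 by its brightest probe set. The ELK3 probe set at -2.04 no longer passed without moderation (adjusted p = 0.0915). CXCL11, CXCL16, CXCR1, CXCR2, C3, TIA1 and BTC also lost their calls without moderation. The difference of CXCL8 minus CXCL1 was -8.18 with the mean of all probe sets and -8.69 without cross-hybridising ones, and between -7.71 and -7.43 with 1 array left out. Over all lists together, 67 to 76 genes were lower and 18 to 27 higher with 1 array left out, against 73 and 23 in the full comparison. They were 52 and 19 without moderation, and 60 lower with dim features left out. Without moderation the lower genes numbered 6 in place of 10 among NF-kB subunits and feedback genes, 5 in place of 8 among inducers, 4 in place of 7 among myeloid mediators and 3 in place of 5 among other CXC chemokines, and neither of the receptors passed. AU-rich decay factors were then 2 lower and 3 higher, in place of 4 and 6. Without cross-hybridising probe sets 2 luminal markers were higher in place of 4, and 2 AU-rich decay factors lower in place of 4. Proteases were 1 higher in place of 0 without an intensity trend, with quantile normalization and with the mean of all probe sets. At the fold and p of the study's own selection, 5 AP-1 and C/EBP factors were lower in place of 8, 2 AU-rich decay factors higher in place of 6, and 2 other CXC chemokines lower in place of 5. Leaving out an array leaves 1 in its group, which is then taken to vary like the others. No paired analysis was possible because the groups share only replicate number 1.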
